A study of Mus musculus with 16 samples.

Results

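Cell division ends in mitosis, when the duplicated chromosomes are condensed, attached to a spindle and pulled apart. The expression of 48 genes that carry out these steps was followed across cultured mouse muscle cells. They were a list of named mitosis and chromosome segregation genes, chosen with earlier results of these data known. All 48 were found among the 35613 genes of the files, and all 48 passed the filter on low counts. RNA had been sequenced from 16 libraries of primary skeletal muscle cultures that carried the Pax7-nGFP reporter, in which nuclear GFP marks expression of Pax7, the transcription factor of muscle stem cells and myoblasts.

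A total of 15 libraries formed 5 groups of 3 biological replicates, all from parental lines of male animals aged 16 weeks. GFP+ MPC and bulk MPC had been kept as myoblasts for 2 to 3 passages and were then passaged 5 to 6 times in MPC medium. This medium contained the adenylyl cyclase activator forskolin and RepSox, which blocks the TGF-beta receptor kinase, at 5 µM each, together with a compound spelled CHIR9901 in the labels at 3 µM. The first of these groups was sorted for GFP and the other was taken unsorted. The labels do not spell out MPC. GFP+ myoblasts were sorted from myoblast medium at passage 5 to 6. Differentiated myoblasts spent 3 days in a low-serum differentiation medium and were harvested at passage 4 to 5. Bulk myoblasts were unsorted cells in myoblast medium at passage 3. A single further library, high-passage GFP+ MPC, came from a female line aged 39 weeks. It had started from GFP- sorted myoblasts at passage 8, had spent 2 passages in MPC medium and was then sorted for GFP. Medium, serum and passage differ between the groups, and RNA of sorted and unsorted cells was prepared with different kits, so none of these can be told apart from the group contrasts they go with. What the cultures hold besides GFP+ cells is not given by the labels of the unsorted groups.

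The libraries held 19.3 to 29.1 M estimated counts each (M, mega). Levels are given as CPM, estimated counts scaled by library total and by TMM factors, which correct for differences in RNA composition. Pax7 had 596, 867 and 834 CPM in GFP+ MPC, 871, 828 and 1005 CPM in GFP+ myoblasts, 66.5, 137 and 57.2 CPM in bulk MPC, 25.4, 65.1 and 45.9 CPM in differentiated myoblasts and 549, 658 and 528 CPM in bulk myoblasts. The sorted libraries were thus the Pax7-high ones of their culture type. The summed level of 10 muscle differentiation markers, among them Myog, Myh3, Ckm and Acta1, was 782, 1759 and 939 CPM in GFP+ MPC and 526, 418 and 358 CPM in GFP+ myoblasts. It was 77174, 56466 and 66734 CPM in bulk MPC, 65072, 58679 and 58041 CPM in differentiated myoblasts and 21005, 15748 and 23046 CPM in bulk myoblasts. The defining endothelial marker Cdh5 was at most 1.37 CPM in any library. Those of leukocytes (Ptprc), macrophages (Adgre1) and Schwann cells (Sox10) were at most 0.144, 0.0984 and 0.0621 CPM. Other genes of these lists were low but not always absent. Over the 16 libraries 6 endothelial markers summed to 3.09 to 5.9 CPM. The 6 macrophage and leukocyte markers summed to 2.44 to 3.76 CPM in GFP+ MPC, 2.09 to 2.43 CPM in GFP+ myoblasts, 5.51 to 6.82 CPM in bulk MPC, 9.05 to 10.9 CPM in differentiated myoblasts and 4.75 to 6.51 CPM in bulk myoblasts. The 6 Schwann cell markers summed to 1.85 to 4.17 CPM in GFP+ MPC, 5.23 to 15 CPM in GFP+ myoblasts, 6.08 to 14.6 CPM in bulk MPC, 2.36 to 3.65 CPM in differentiated myoblasts and 6.26 to 8.2 CPM in bulk myoblasts. Some of these genes passed the test between groups. In GFP+ MPC against bulk MPC the log2 fold change was -6.77 for Foxd3, -3.55 for Itgam, -3.22 for Cdh5 and -2.28 for Mbp, all called lower.

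A list of 14 fibroblast and fibro-adipogenic markers summed to 1754, 1228 and 1207 CPM in GFP+ MPC, 964, 824 and 656 CPM in GFP+ myoblasts, 106, 936 and 166 CPM in bulk MPC, 36.6, 104 and 131 CPM in differentiated myoblasts and 724, 861 and 991 CPM in bulk myoblasts. The sum was highest in GFP+ MPC, which did not overlap any other group, and lowest in differentiated myoblasts and in bulk MPC replicates 1 and 3. Col3a1, a fibrillar collagen, was the most abundant of the 14 in GFP+ MPC, with 1507, 985 and 1019 CPM, and made up most of the sum there. The list did not move as one. In GFP+ MPC against bulk MPC, Col3a1 and Fbln1 were called higher and Pdgfra and Col1a1 lower. Without bulk MPC replicate 2 none of the list was called lower. Bulk MPC replicate 2 stood apart from the other 2 bulk MPC libraries. Its fibroblast marker sum lay within the range of bulk myoblasts. It had 31.5 CPM of Dcn, 8.2 CPM of Lum and 89.5 CPM of Col1a1, genes of the extracellular matrix, against at most 2.2 CPM of each in the other 2. Its muscle differentiation markers were the lowest of the 3. Counts of mitosis genes and of the other lists that rest on bulk MPC are given with and without it.

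Entry into mitosis is driven by the kinase Cdk1 bound to cyclin B, and the spindle checkpoint then holds anaphase back until every kinetochore is attached to microtubules. Most genes of this machinery are transcribed together late in the cell cycle. In quiescent cells the DREAM complex represses them, and in cycling cells the MuvB core with B-Myb, and then FoxM1, activates them, through promoter elements called CHR (cell cycle genes homology region) and often with NF-Y at CCAAT boxes. Myoblasts divide, whereas their differentiation into fusing myocytes goes with exit from the cell cycle, so these transcripts are widely read as a measure of how many cells of a muscle culture are cycling.

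The 48 genes followed nearly the same order over the groups. In 46 of 48 the mean CPM was highest in GFP+ MPC, followed in falling order by GFP+ myoblasts, bulk myoblasts, bulk MPC and differentiated myoblasts. The other 2, Anln and Pttg1, had GFP+ myoblasts at the top and the same order below. Mki67, which coats mitotic chromosomes and is the usual proliferation marker, had 699, 924 and 764 CPM in GFP+ MPC and 312, 230.3 and 400.1 CPM in GFP+ myoblasts. It had 49.8, 156 and 69.2 CPM in bulk MPC, 1.08, 3.82 and 3.03 CPM in differentiated myoblasts and 192, 173 and 176 CPM in bulk myoblasts. No library of one of these 5 groups overlapped another group for Mki67. The ratio of the GFP+ MPC mean to the differentiated mean was 301 for Mki67 and 299 for Aurkb, the kinase of the chromosomal passenger complex, the widest of the 48. It was 15.1 for Spc24, a subunit of the Ndc80 complex that grips spindle microtubules, the narrowest.

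Summed over the 48 genes, the level was 8887, 10350.0 and 8665 CPM in GFP+ MPC, 5123, 4303 and 6816 CPM in GFP+ myoblasts, 739, 1719.5 and 887 CPM in bulk MPC, 112, 161 and 144 CPM in differentiated myoblasts and 2883, 2982 and 2663 CPM in bulk myoblasts. No library of one group overlapped another group in this sum. Since RNA was pooled over cells, fewer cells that express these genes and less of their RNA per cell cannot be told apart. The median gene of the 48 had a mean of 149.97 CPM in GFP+ MPC, 98.3 CPM in GFP+ myoblasts, 17.3 CPM in bulk MPC, 2.01 CPM in differentiated myoblasts and 51.9 CPM in bulk myoblasts. In differentiated myoblasts 11 of the 48 had a mean under 1 CPM. Per length, in TPM, a measure scaled by transcript length and library total, the most abundant of the 48 was Hmgb2, a chromatin protein, in GFP+ MPC with a mean of 734 TPM. In the other 4 groups it was Stmn1, which destabilises microtubules, with means of 432 TPM in GFP+ myoblasts, 75.2 TPM in bulk MPC, 25.6 TPM in differentiated myoblasts and 217 TPM in bulk myoblasts.

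**Figure D1:**
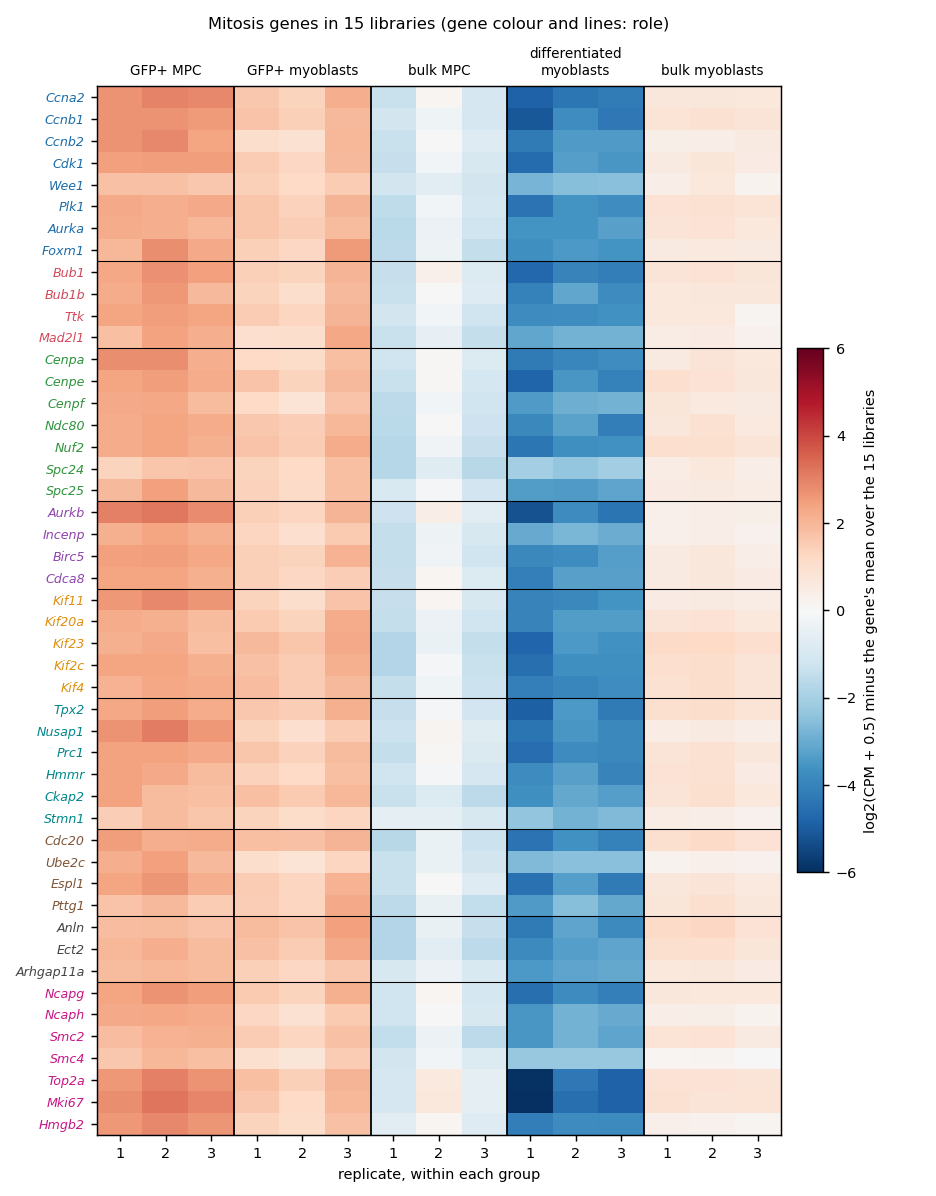
Heat map of the 48 mitosis genes (rows, coloured and divided by role) in the 15 replicated libraries (columns, 3 replicates a group); colour is log2(CPM + 0.5) minus the gene's mean over the 15 libraries. The rows are alike: red to orange in both GFP+ groups, pale blue in bulk MPC, blue in differentiated myoblasts and near white in bulk myoblasts, with bulk MPC replicate 2 paler than the other 2 bulk MPC libraries.

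**Figure D2:**
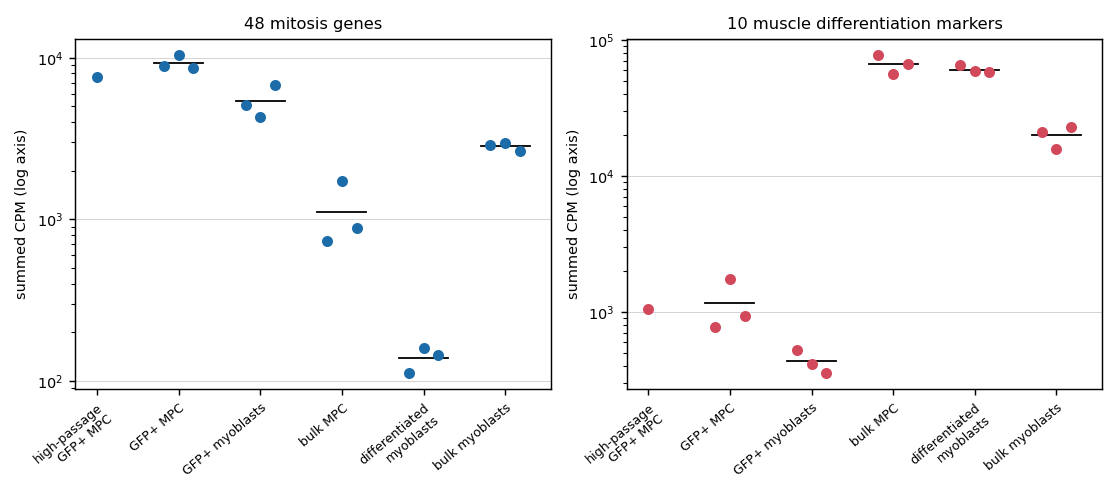
Summed CPM on a log axis of the 48 mitosis genes (left) and of 10 muscle differentiation markers (right); each point is a library and lines are group means. The mitosis genes summed to 7613 CPM in the single high-passage GFP+ MPC library, 8665 to 10350.0 CPM in GFP+ MPC and 112 to 161 CPM in differentiated myoblasts, and the muscle markers ran the other way across sorted and unsorted groups.

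Promoter sequence was examined because the 48 genes moved together. RefSeq promoters of the mouse build GRCm38.p6, 250 bases before to 50 bases after the annotated start, matched 38 of the 48 by symbol, out of 32851 promoters in the table. A gene of the 38 was counted if any of its promoters matched, whereas the shares over all and over tested genes count single promoters. No sequence was matched for Ccna2, Tpx2, Stmn1, Spc24, Aurkb, Foxm1, Wee1, Smc4, Kif20a and Incenp. The CHR core TTTGAA, on either strand, was found in 29 of 38 (76.3%), against 17.9% of all promoters and 12.3% of 14534 promoters of genes tested here. Between 100 bases before the start and the end of the window it was found in 27 of 38 (71.1%), against 8.01% of all promoters and 4.80% of those of tested genes. CCAAT, on either strand, was found in 29 of 38 (76.3%), against 37.4% and 37.3%, and 18 of 38 (47.4%) held at least 2 matches, against 11.7% and 13.6%. Both TTTGAA and CCAAT were found for 26 of the 38 genes, while 6.95% of all promoters and 4.98% of those of tested genes held both. The CHR-like variant TTTAAA, which reads the same on both strands, was found in 9 of 38 (23.7%), against 13.2% and 9.43%. The E2F site forms TTTGGCGC or TTTCCCGC, on either strand, were found in 2 of 38 (5.26%), against 1.56% and 2.64%. Neither TTTGAA nor TTTAAA was found in the window of Bub1, Mad2l1, Ncaph, Nuf2, Nusap1 and Pttg1. These are matches of letters in a fixed window, not measured binding.

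The stretches below run from 150 bases before to 50 bases after the start, 200 bases each, 5′ to 3′ on the gene's strand, with matches to the CHR core, its variant and the CCAAT box in capitals, whichever strand they are on. Cdk1 (chr10:69352863-69353062 on the minus strand) and Ccnb2 (chr9:70421505-70421704 on the minus strand) are shown as the kinase and a cyclin of mitotic entry with spaced CCAAT matches upstream of a TTTGAA match near the start. Plk1 (chr7:122159285-122159484 on the plus strand) is shown for holding both TTTAAA and TTTGAA, and Mki67 (chr7:135716330-135716529 on the minus strand) for the widest range of levels.
Cdk1: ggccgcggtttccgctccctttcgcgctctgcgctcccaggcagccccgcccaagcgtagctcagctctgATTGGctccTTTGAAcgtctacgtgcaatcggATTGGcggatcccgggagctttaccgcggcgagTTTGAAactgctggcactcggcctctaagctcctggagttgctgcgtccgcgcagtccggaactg
Ccnb2: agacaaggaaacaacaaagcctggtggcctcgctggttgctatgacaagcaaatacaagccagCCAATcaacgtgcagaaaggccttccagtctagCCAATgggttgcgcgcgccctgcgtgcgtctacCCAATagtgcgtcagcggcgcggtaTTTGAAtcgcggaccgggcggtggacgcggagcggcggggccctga
Plk1: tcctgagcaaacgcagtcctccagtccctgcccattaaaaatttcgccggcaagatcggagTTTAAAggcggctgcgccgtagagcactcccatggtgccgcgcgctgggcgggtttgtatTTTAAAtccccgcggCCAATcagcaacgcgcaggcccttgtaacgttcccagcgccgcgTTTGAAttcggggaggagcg
Mki67: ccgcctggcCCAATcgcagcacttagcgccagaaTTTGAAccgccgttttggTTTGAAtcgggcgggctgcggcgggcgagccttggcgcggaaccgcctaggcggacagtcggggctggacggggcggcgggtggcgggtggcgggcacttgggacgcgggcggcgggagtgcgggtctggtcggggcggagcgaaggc
Nusap1 (chr2:119618148-119618347 on the plus strand) and Anln (chr9:22389157-22389356 on the minus strand) are the genes at the opposite ends of the GFP+ MPC to GFP+ myoblast comparison given later. The Nusap1 stretch held no match, and that of Anln held 2 TTTGAA matches close together on opposite strands.
Nusap1: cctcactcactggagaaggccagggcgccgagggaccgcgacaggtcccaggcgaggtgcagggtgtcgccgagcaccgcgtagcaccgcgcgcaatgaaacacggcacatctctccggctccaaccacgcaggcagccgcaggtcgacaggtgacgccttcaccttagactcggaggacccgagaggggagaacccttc
Anln: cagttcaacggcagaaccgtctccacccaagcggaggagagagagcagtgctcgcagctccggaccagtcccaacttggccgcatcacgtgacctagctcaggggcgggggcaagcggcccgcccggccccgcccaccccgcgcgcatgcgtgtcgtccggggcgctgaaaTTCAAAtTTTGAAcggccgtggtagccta
Size of change was set beside the presence of TTTGAA. In GFP+ MPC against GFP+ myoblasts the median log2 fold change was 0.74 over the 29 genes with TTTGAA and 0.79 over the 9 without, and in differentiated against bulk myoblasts it was -4.77 with and -5.17 without.

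**Figure D3:**
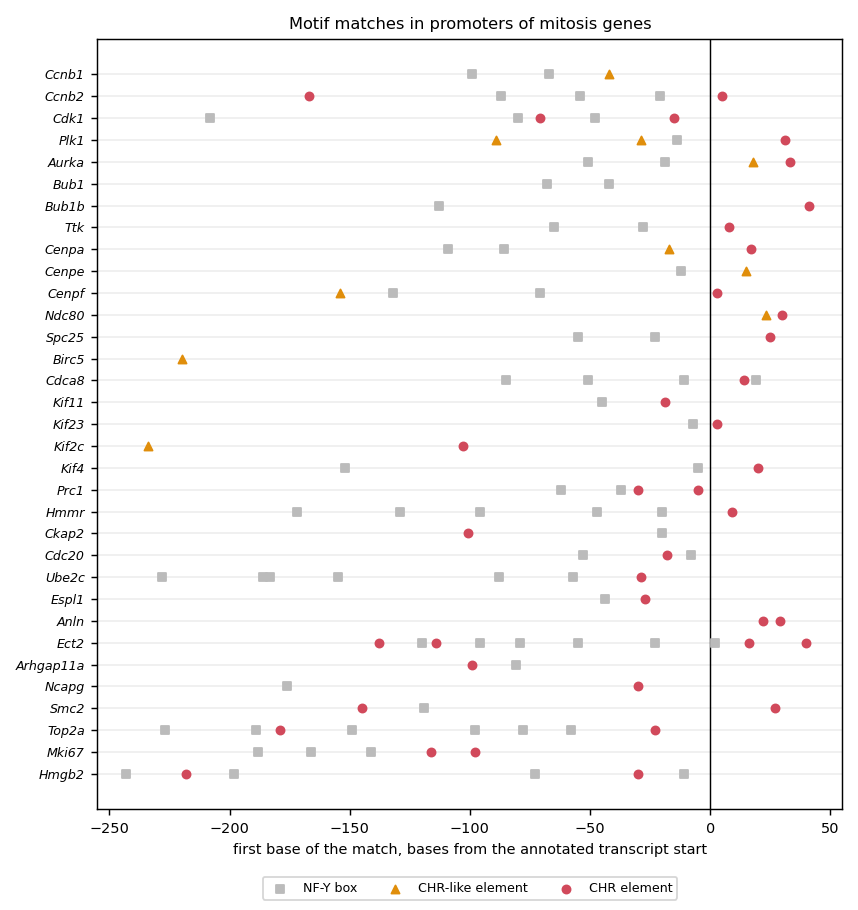
Positions of promoter motif matches in the 33 mitosis genes with at least 1 match, in bases from the annotated transcript start; circles are CHR elements, triangles the CHR-like element and squares NF-Y boxes. CHR matches gather within 100 bases before the start and after it, and many NF-Y boxes stand upstream of them.

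Differentiated myoblasts were compared with bulk myoblasts. All 48 mitosis genes fell, and in all 48 the groups did not overlap. Of all 15533 genes tested 54.2% passed, 25.6% higher and 28.6% lower, and 36.9% had every differentiated library below every bulk one. The 48 had a median log2 fold change of -4.62, against -0.03 over all genes. Genes were tested with edgeR's quasi-likelihood test and p adjusted over all 15533 genes, with a threshold of 0.05. 

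Among the genes of mitotic entry, Ccnb1, cyclin B1, had 0.837, 2.98 and 1.85 CPM in differentiated and 80.3, 86.8 and 79.1 CPM in bulk myoblasts, a log2 fold change of -5.46 ± 0.35 (adjusted p = 3.32e-07). Cdk1 had 1.53, 4.49 and 3.93 CPM in differentiated and 71.4, 80.6 and 68.1 CPM in bulk myoblasts. The differentiated libraries were all far below the bulk ones. Wee1, the kinase that holds Cdk1 inactive, fell least of these 8, by 3.31 on the log2 scale, and Ccna2, cyclin A2, fell most, by 5.48. In the spindle checkpoint, Bub1, a kinase that recruits checkpoint proteins to kinetochores, had 0.295, 0.786 and 0.674 CPM in differentiated and 34.7, 37.5 and 33.6 CPM in bulk myoblasts, with a log2 fold change of -5.92 ± 0.49 (adjusted p = 1.15e-06). Mad2l1, a checkpoint protein that inhibits the anaphase activator Cdc20, changed by -3.55 ± 0.39 on the log2 scale. In the Ndc80 complex the 4 subunits were unequal: the log2 fold change was -5.68 ± 0.52 for Ndc80, -5.43 ± 0.43 for Nuf2, -4.37 ± 0.31 for Spc25 and -2.82 ± 0.27 for Spc24. Spc24 kept 3.3, 2.58 and 3.15 CPM in differentiated myoblasts, against 20.7, 23.3 and 20 CPM in bulk myoblasts.

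The passenger complex kinase Aurkb changed by -5.58 ± 0.54 on the log2 scale (adjusted p = 3.54e-06), with 0.0984, 1.12 and 0.562 CPM in differentiated and 26.9, 28.6 and 28.1 CPM in bulk myoblasts. Its scaffold Incenp changed by -3.32 ± 0.25 on the log2 scale. On the log2 scale the 5 mitotic kinesins lay between -5.68 for Kif2c, a microtubule depolymerase, and -4.49 for Kif20a, a motor of the spindle midzone. The changes of the 6 spindle microtubule proteins lay, in log2, between -5.29 for Tpx2, a spindle assembly factor, and -3.01 for Stmn1. At anaphase onset, Cdc20, which activates the anaphase-promoting complex, changed by -5.37 ± 0.34 on the log2 scale, and Ube2c, the conjugating enzyme of the same complex, by -2.88 ± 0.23. Ube2c had 6.54, 7.3 and 7.13 CPM in differentiated and 49.9, 53.6 and 51.3 CPM in bulk myoblasts. The log2 changes of the 3 cytokinesis genes lay between -4.96 for Anln, anillin of the contractile ring, and -3.99 for Arhgap11a. Chromosome structure genes held both extremes of the 48. Mki67 changed by -6.11 ± 0.50 on the log2 scale (adjusted p = 1.01e-06) and Top2a, the topoisomerase that untangles sister DNA, by -5.87 ± 0.49, whereas Smc4, a condensin ATPase, changed by -2.40 ± 0.24 (adjusted p = 4.2e-06). Smc4 had 21.1, 21.1 and 20.8 CPM in differentiated and 111, 117 and 105 CPM in bulk myoblasts, its groups apart but its residual level the highest CPM of the 48 in differentiated cells. All 48 kept their call without each library in turn, and leaving out differentiated replicate 2 moved 4 of the 48 folds by over 1.5 times. Muscle differentiation markers moved the other way, with 8 of 10 higher and none lower. Fibroblast markers moved the same way as the mitosis genes, with 7 of 10 tested lower and none higher, a median log2 fold change of -2.65 and sums that did not overlap. The part of either list in these results was not tested. Scaled by library totals alone, all 48 mitosis genes were called lower, with a median log2 fold change of -4.83, and calls over all genes split 2711 higher and 5805 lower, against 3976 and 4441 with TMM.

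Bulk MPC were compared with bulk myoblasts, the unsorted culture in myoblast medium at an earlier passage. Of the 48 mitosis genes 47 fell and none rose, and in 47 the groups did not overlap. Among all genes tested 58.5% passed, 28.4% higher and 30.1% lower, and 35.6% had every bulk MPC library below every bulk myoblast library. The median log2 fold change was -1.42 over the 48 and -0.01 over all genes. Aurkb, the gene that missed the threshold, had 8.88, 28.8 and 13.8 CPM in bulk MPC and 26.9, 28.6 and 28.1 CPM in bulk myoblasts, a log2 fold change of -0.70 ± 0.38 (adjusted p = 0.131). Replicate 2 of bulk MPC was above all 3 myoblast libraries and the other 2 were below them.

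The largest falls were those of Kif23, Anln and Ect2. Kif23, the midzone kinesin of the centralspindlin complex, had 8.5, 23 and 10.8 CPM in bulk MPC and 68.1, 69.9 and 60.4 CPM in bulk myoblasts, a log2 fold change of -2.23 ± 0.35 (adjusted p = 0.000136). Anln changed by -2.21 ± 0.32 on the log2 scale (adjusted p = 7.38e-05) and Ect2, an exchange factor of the cleavage furrow, by -2.16 ± 0.28 (adjusted p = 2.62e-05). Cdc20 changed by -2.04 ± 0.28 on the log2 scale and Ckap2, a microtubule-associated protein, by -2.04 ± 0.22. The smallest called falls were those of Hmgb2 and Smc4. Hmgb2 had 34.1, 57.3 and 30.6 CPM in bulk MPC and 64.6, 62.3 and 59.4 CPM in bulk myoblasts, a change of -0.61 ± 0.22 on the log2 scale (adjusted p = 0.0266), and Smc4 changed by -0.73 ± 0.23 (adjusted p = 0.0132). By role, the median log2 fold change was -2.16 over 3 cytokinesis genes, -1.86 over 5 kinesins, -1.65 over 4 anaphase genes and -1.48 over 8 entry genes, with that of the 7 kinetochore genes between the last 2. It was -1.45 over 6 spindle microtubule genes, -1.28 over 4 checkpoint genes, -1.15 over 4 passenger genes and -0.97 over 7 chromosome structure genes.

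Over all genes, replicate 2 of bulk MPC lay above both other bulk MPC libraries in 36% and below both in 34.9%, with a median difference of 0.00. It lay above both in 48 of 48 mitosis genes, by a median of 1.12 on the log2 scale. Mki67 shows it, with 156 CPM there and 49.8 and 69.2 CPM in replicates 1 and 3. The same library had the fibroblast genes named above, the highest Pax7 of the 3 and the lowest muscle differentiation markers, whose part was not tested. Without it all 48 genes fell, with a median log2 fold change of -1.88, and Aurkb changed by -1.30 (adjusted p = 0.00574). Leaving it out moved 6 of the 47 called folds by over 1.5 times. Without replicate 1 or replicate 3 of bulk MPC, 41 of 48 were called. Of 10 muscle differentiation markers 7 were higher and none lower in bulk MPC, with and without replicate 2. Of 10 tested fibroblast markers 2 were higher and 3 lower, with a median log2 fold change of -0.95, and without replicate 2 none was higher and 8 were lower, with a median of -3.13. Their part in the result was not tested. Scaled by library totals alone, all 48 mitosis genes were called lower, with a median log2 fold change of -1.77, and calls over all genes split 2747 higher and 6985 lower, against 4408 and 4679 with TMM.

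Set against differentiated myoblasts, bulk MPC had all 48 mitosis genes higher, with no overlap in any of the 48. Among all genes 43.8% passed, 24.4% higher and 19.4% lower, and 32.2% had no overlap in that direction. The median log2 fold change was 3.33 over the 48 and 0.07 over all genes. Mki67 changed by 5.13 ± 0.48 on the log2 scale (adjusted p = 5.44e-06), Aurkb by 4.88 ± 0.54 (adjusted p = 1.79e-05) and Top2a by 4.85 ± 0.47. Bub1, at 7.52, 25.2 and 11.1 CPM in bulk MPC and 0.295, 0.786 and 0.674 CPM in differentiated myoblasts, changed by 4.66 ± 0.49 on the log2 scale (adjusted p = 1.22e-05). The smallest changes were those of Spc24, 0.94 ± 0.27 on the log2 scale (adjusted p = 0.0134), Smc4, 1.67 ± 0.23, and Ube2c, 1.73 ± 0.22. The summed muscle differentiation markers of these groups overlapped, and 1 of 10 was higher and 1 lower. Without bulk MPC replicate 2 the median log2 fold change was 2.84 and 47 genes stayed called, Spc24 being lost with 0.50 (adjusted p = 0.0801). Spc24 was also lost without differentiated replicate 2 (adjusted p = 0.054). Leaving out bulk MPC replicate 2 moved 7 of the 48 folds by over 1.5 times and leaving out differentiated replicate 2 moved 3. Of 10 tested fibroblast markers 4 were higher and none lower, with a median log2 fold change of 1.37. Without bulk MPC replicate 2, 2 were higher and 1 lower, and the median turned to -1.27. Their part was not tested. Scaled by library totals alone all 48 mitosis genes stayed called higher, and calls over all genes split 2824 higher and 3972 lower, against 3792 and 3019 with TMM.

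Sorting for GFP went with higher mitosis genes in both cultures, and by more in MPC. In myoblasts alone the sorted libraries were also at a later passage. GFP+ MPC against bulk MPC had all 48 higher with no overlap, where 66.6% of all genes passed, 32.9% higher and 33.7% lower, and 33.3% had no overlap in that direction. The changes were alike in size over the 48 genes, from 2.37 ± 0.15 (adjusted p = 3.42e-08) for Stmn1 to 3.48 ± 0.34 (adjusted p = 1.08e-06) for Ccna2 on the log2 scale, with a median of 3.12 against -0.01 over all genes. Ccna2 had 292, 364 and 332 CPM in GFP+ MPC and 17.7, 48.9 and 22 CPM in bulk MPC. Aurkb, at 179.5, 199 and 155 CPM in GFP+ MPC and 8.88, 28.8 and 13.8 CPM in bulk MPC, changed by 3.37 ± 0.41 on the log2 scale. Foxm1, the transcription factor that activates late cell cycle genes, changed by 3.38 ± 0.39 on the log2 scale, with 163, 276 and 198 CPM in GFP+ MPC and 13.3, 32.9 and 14.8 CPM in bulk MPC. Median log2 fold changes by role lay between 2.93 for cytokinesis and 3.29 for mitotic entry. All 10 muscle differentiation markers were lower in GFP+ MPC, with a median log2 fold change of -5.33, and the part of that difference in the result was not tested. Without bulk MPC replicate 2 the median log2 fold change was 3.61, all 48 stayed called, and 7 folds moved by over 1.5 times. Fibroblast markers had 2 of 10 tested higher and 2 lower, and without that library 5 higher and none lower, and their part was not tested either. Scaled by library totals alone all 48 mitosis genes were higher, with a median log2 fold change of 3.56, and calls over all genes split 7470 higher and 3522 lower, against 5118 and 5232 with TMM.

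GFP+ myoblasts against bulk myoblasts had 36 of 48 higher and none lower, where 30% of all genes passed, 12.7% higher and 17.4% lower. In all 48 the groups did not overlap, against 25.3% of all genes in that direction. The median log2 fold change was 0.93 over the 48 and -0.02 over all genes. Foxm1 had the largest change, 1.31 ± 0.36 on the log2 scale (adjusted p = 0.0149), at 110.5, 94.3 and 234 CPM in GFP+ myoblasts and 58.3, 60.1 and 59 CPM in bulk myoblasts. Aurkb changed by 1.27 ± 0.38 on the log2 scale (adjusted p = 0.0228), Hmgb2 by 1.21 ± 0.22 (adjusted p = 0.00118) and Ttk, the checkpoint kinase Mps1, by 1.19 ± 0.26 (adjusted p = 0.00443). All 8 genes of mitotic entry, all 4 of the passenger complex, all 4 of anaphase onset and all 3 of cytokinesis were called. The 12 that missed the threshold were Bub1, Bub1b, Cenpa, Cenpe, Cenpf, Ndc80, Kif23, Kif2c, Tpx2, Hmmr, Top2a and Mki67, with log2 fold changes between 0.66 for Cenpf (adjusted p = 0.121) and 0.99 for Ndc80 (adjusted p = 0.0505).

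The 3 GFP+ myoblast libraries were spread: replicate 3 lay above both others in 47 of 48 genes and replicate 2 below both in 47. Over all genes replicate 3 lay above both others in 44.8% and below both in 39.5%, and replicate 2 below both in 30.7%. Mad2l1 had 52.7, 53 and 131 CPM in them, against 35.6, 36.6 and 30.5 CPM in bulk myoblasts. The count called fell to 13 without GFP+ myoblast replicate 3, and to 18, 23 and 12 without bulk myoblast replicates 1, 2 and 3. Under all 6 leave-outs 12 genes stayed called: Wee1, Ttk, Spc24, Spc25, Incenp, Birc5, Ckap2, Stmn1, Ube2c, Arhgap11a, Smc4 and Hmgb2. All 10 muscle differentiation markers were lower in GFP+ myoblasts, and of 10 tested fibroblast markers none was higher and 3 were lower. The part of these lists was not tested. Scaled by library totals alone 42 mitosis genes were called higher, and calls over all genes split 2981 higher and 2261 lower, against 1966 and 2701 with TMM.

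The difference between the sort effects, that of MPC minus that of myoblasts, was tested as an interaction. All 48 genes had a larger effect in MPC, where 37.1% of all genes passed, 20.3% higher and 16.8% lower. The median difference was 2.17 on the log2 scale, against 0.09 over all genes. The largest were those of Ccnb1, 2.55 ± 0.38 on the log2 scale (adjusted p = 0.000268), Cdc20, 2.50 ± 0.38 (adjusted p = 0.000303), Nusap1, which binds and bundles spindle microtubules, 2.47 ± 0.43 (adjusted p = 0.000771), and Cenpa, the centromeric histone, 2.45 ± 0.41 (adjusted p = 0.000567). For Ccnb1 the sort effect was 3.41 ± 0.29 on the log2 scale in MPC and 0.86 ± 0.27 in myoblasts. The smallest difference was that of Smc4, 1.45 ± 0.32 on the log2 scale, and that of Stmn1 was next. All 48 stayed called without each of the 12 libraries in turn, and the median log2 difference was 2.67 without bulk MPC replicate 2, where 7 of the 48 moved by over 1.5 times. Scaled by library totals alone all 48 stayed called, with a median log2 difference of 2.51 against 0.46 over all genes, and calls over all genes split 5490 higher and 1547 lower, against 3149 and 2606 with TMM. Of 10 muscle differentiation markers none had a higher difference and 1, Mymk, a lower one. Of 10 tested fibroblast markers 3 had a higher and 1 a lower difference, and without bulk MPC replicate 2, 7 higher and none lower. Their part was not tested.

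Among sorted cells, GFP+ MPC were compared with GFP+ myoblasts, the Pax7-high cells of both cultures. Of the 48 genes 25 rose and none fell, where 48.6% of all genes passed, 26% higher and 22.7% lower. In 37 every GFP+ MPC library was above every GFP+ myoblast library, against 27.8% of all genes. The median log2 fold change was 0.72 over the 48 and 0.09 over all genes.

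The chromosomal passenger complex, which corrects faulty attachments of kinetochores, had 4 of 4 genes higher. Aurkb had 179.5, 199 and 155 CPM in GFP+ MPC and 58.4, 53.9 and 89 CPM in GFP+ myoblasts, a log2 fold change of 1.41 ± 0.37 (adjusted p = 0.00725). Incenp changed by 0.91 ± 0.22 on the log2 scale (adjusted p = 0.00402), Cdca8, borealin, by 0.91 ± 0.29 (adjusted p = 0.019) and Birc5, survivin, by 0.79 ± 0.27 (adjusted p = 0.0281). The groups did not overlap for any of the 4. Chromosome structure had 6 of 7 higher. Hmgb2 had 321, 389.6 and 328 CPM in GFP+ MPC and 136, 114 and 182 CPM in GFP+ myoblasts, a change of 1.27 ± 0.22 on the log2 scale (adjusted p = 0.00034). Mki67 changed by 1.34 ± 0.38 on the log2 scale (adjusted p = 0.0108), Top2a by 1.02 ± 0.39 (adjusted p = 0.0419) and the condensin I subunits Ncaph by 1.02 ± 0.25 (adjusted p = 0.00445) and Ncapg by 0.82 ± 0.30 (adjusted p = 0.0368). Smc4 was higher too, at 0.72 ± 0.22 on the log2 scale, and its partner Smc2, at 0.50 ± 0.27 (adjusted p = 0.134), missed the threshold.

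Mitotic entry had 4 of 8 higher. The cyclins Ccnb2, Ccna2 and Ccnb1 changed by 1.26 ± 0.33 on the log2 scale (adjusted p = 0.00716), 1.11 ± 0.31 (adjusted p = 0.00968) and 0.96 ± 0.27 (adjusted p = 0.00916), and Cdk1 by 0.90 ± 0.30 (adjusted p = 0.0258). Cdk1 had 267, 281 and 279 CPM in GFP+ MPC and 139.5, 118 and 187 CPM in GFP+ myoblasts. Its GFP+ MPC libraries were close together and all above the myoblast libraries. Plk1, the polo-like kinase, Aurka, the Aurora kinase of the centrosomes, Foxm1 and Wee1 had log2 fold changes of 0.53, 0.46, 0.54 and 0.33, with adjusted p from 0.083 to 0.222. Foxm1 had 163, 276 and 198 CPM in GFP+ MPC and 110.5, 94.3 and 234 CPM in GFP+ myoblasts, and replicate 3 of the myoblasts lay inside the MPC range. In the spindle checkpoint Bub1, 0.88 ± 0.34 on the log2 scale (adjusted p = 0.0455), and Ttk, 0.78 ± 0.25 (adjusted p = 0.0213), rose, while Bub1b, 0.80 ± 0.32 (adjusted p = 0.0519), and Mad2l1, 0.57 ± 0.33 (adjusted p = 0.168), missed the threshold. At the centromere Cenpa changed by 1.21 ± 0.29 on the log2 scale (adjusted p = 0.00335), Cenpf by 0.90 ± 0.31 (adjusted p = 0.0275) and Spc25 by 0.67 ± 0.24 (adjusted p = 0.0321). The log2 fold changes of the other Ndc80 complex subunits were 0.57 for Ndc80, 0.42 for Nuf2 and 0.10 for Spc24, none past the threshold.

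Of the spindle microtubule proteins 3 of 6 rose. Nusap1 had the largest change of the 48, with 105, 136 and 99.7 CPM in GFP+ MPC and 41, 32.8 and 47.5 CPM in GFP+ myoblasts, a log2 fold change of 1.49 ± 0.30 (adjusted p = 0.00121). Hmmr changed by 0.74 ± 0.27 on the log2 scale (adjusted p = 0.0376) and Stmn1 by 0.44 ± 0.14 (adjusted p = 0.0224). Of 5 kinesins Kif11, the motor that pushes spindle poles apart, rose by 1.31 ± 0.29 on the log2 scale (adjusted p = 0.00212), and the other 4 were between 0.09 for Kif23 and 0.47 for Kif2c. Kif11 had 254, 309.8 and 262 CPM in GFP+ MPC and 107, 87.5 and 138 CPM in GFP+ myoblasts. At anaphase onset Ube2c rose by 1.14 ± 0.20 on the log2 scale (adjusted p = 0.000532), while Espl1, separase, and Cdc20 were at 0.75 and 0.46, and Pttg1, the securin that inhibits separase, was at 0.00 ± 0.32 (adjusted p = 0.993). In cytokinesis Arhgap11a rose by 0.51 ± 0.16 on the log2 scale (adjusted p = 0.0161), Ect2 was at 0.15 ± 0.26 and Anln, the lowest of the 48, at -0.22 ± 0.30 (adjusted p = 0.566). Anln had 197, 199.9 and 179 CPM in GFP+ MPC and 199.8, 177 and 296 CPM in GFP+ myoblasts. These groups overlapped, with myoblast replicate 3 the highest library.

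The count called was 14 without GFP+ MPC replicate 2, 14 without GFP+ myoblast replicate 1 and 11 without GFP+ myoblast replicate 2, and 20 to 29 without the others. The genes called under all 6 leave-outs were 11: Ccna2, Ccnb1, Ccnb2, Cenpa, Aurkb, Incenp, Kif11, Nusap1, Ube2c, Ncaph and Hmgb2. Muscle differentiation markers, summing to 782, 1759 and 939 CPM in GFP+ MPC and 526, 418 and 358 CPM in GFP+ myoblasts, were higher too in 7 of 10 and lower in 1, Mymk, a membrane protein needed for fusion, with a log2 fold change of -1.18 ± 0.27. Of 10 tested fibroblast markers 3 were higher (Dcn, Thy1 and Fbln1) and 1 lower (Pdgfra), and their sums did not overlap. The part of these lists in the result was not tested.

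**Figure D4:**
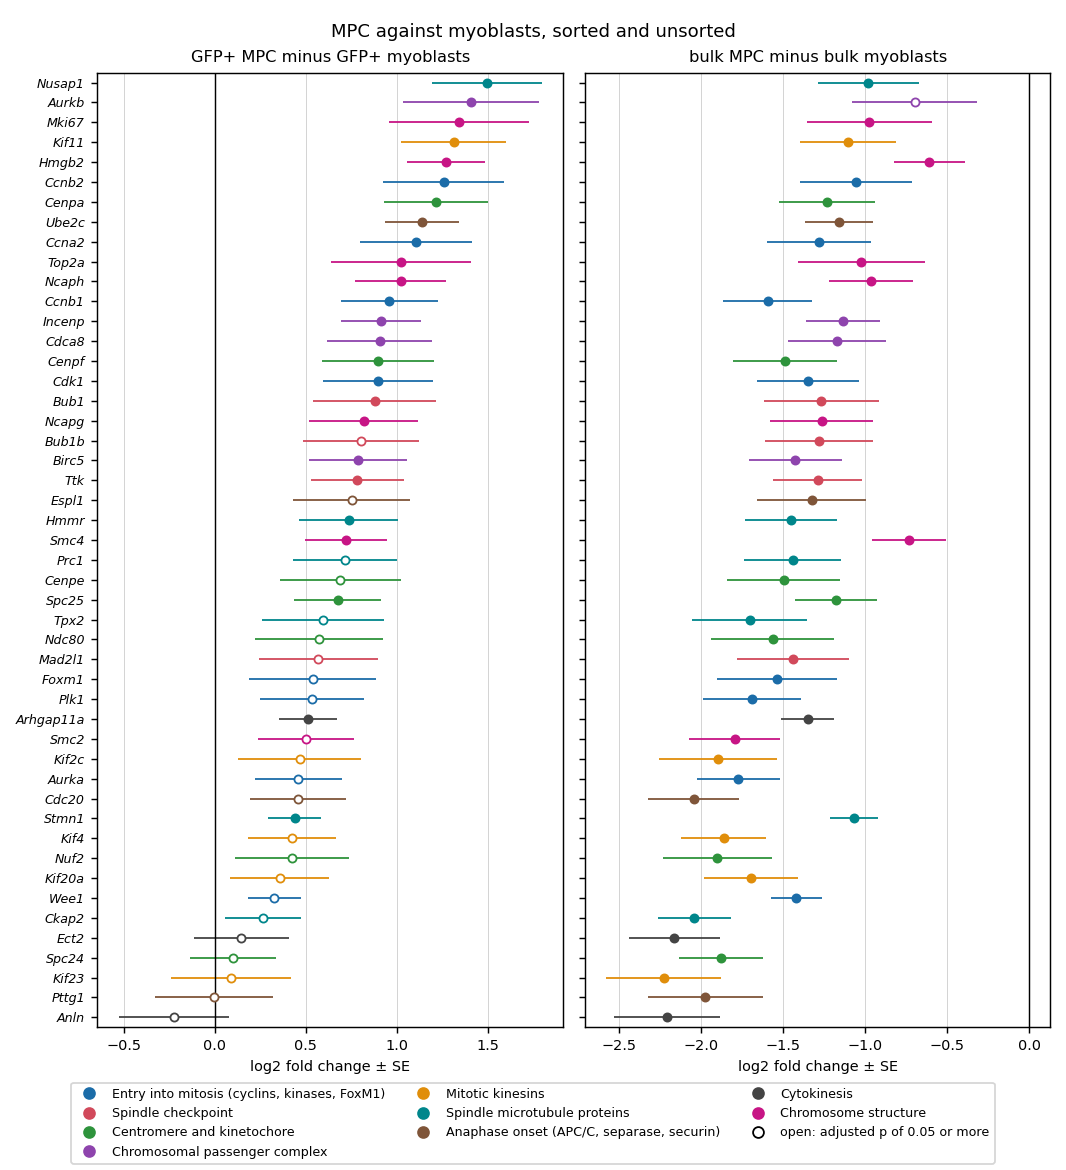
Log2 fold changes ± SE of the 48 mitosis genes in GFP+ MPC minus GFP+ myoblasts (left) and bulk MPC minus bulk myoblasts (right), ordered by the left panel and coloured by role; open points have an adjusted p of 0.05 or more. All but 2 left-panel values are above 0 and all right-panel values are below 0, from -2.23 for Kif23 to -0.61 for Hmgb2.

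The median differences between MPC and myoblast cultures had opposite signs in sorted and unsorted cells, while the order of the genes by size of change was much alike. These 2 comparisons share no library. Across the 48 genes their log2 fold changes had a Pearson r of 0.83 and a Spearman rank correlation of 0.82, a description over genes that were read in the same 12 libraries and are not independent. Over 15503 tested genes, taken as differences of mean log2 CPM and not as fitted fold changes, the Pearson r was 0.63 and the Spearman rank correlation 0.49. The 10 genes highest in GFP+ MPC against GFP+ myoblasts included 7 of the 10 least reduced in bulk MPC against bulk myoblasts, and the bottom 10 of both shared 8. Aurkb, Hmgb2, Mki67 and Nusap1 stood at one end, with log2 fold changes of 1.41, 1.27, 1.34 and 1.49 in sorted cells and -0.70, -0.61, -0.97 and -0.98 in unsorted cultures. Anln, Kif23 and Ect2 stood at the other, with log2 fold changes of -0.22, 0.09 and 0.15 in sorted cells and -2.21, -2.23 and -2.16 in unsorted cultures. With each of the 12 libraries left out, the Pearson r over the 48 genes was 0.70 to 0.86, and 0.70 without bulk MPC replicate 2. These values also use differences of mean log2 CPM, so they are not strictly the same measure as the 0.83.

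**Figure D5:**
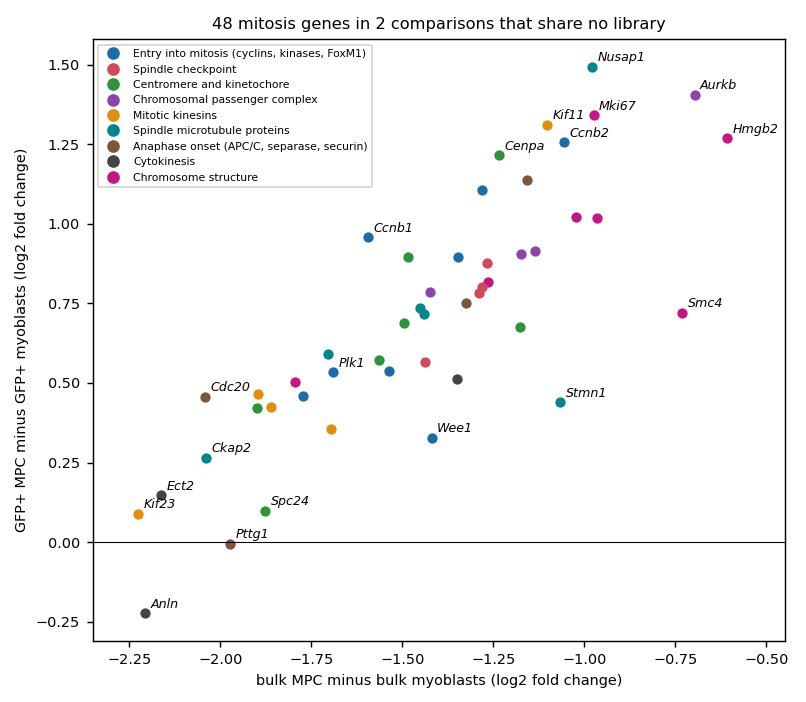
Log2 fold changes of the 48 mitosis genes, coloured by role, in bulk MPC minus bulk myoblasts (horizontal) and GFP+ MPC minus GFP+ myoblasts (vertical). The points rise from Anln, Kif23 and Ect2 at lower left to Aurkb, Hmgb2 and Nusap1 at upper right, with Stmn1 and Smc4 below the others of their horizontal range.

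Other genes of the cycle were set beside the 48. Of 74 further mitosis genes, 43 rose and 2 fell in GFP+ MPC against GFP+ myoblasts, with a median log2 fold change of 0.72, the same as over the 48. Of all genes 26% rose and 22.7% fell there. The largest rises were those of Mxd3, a Myc-network repressor, 1.94 ± 0.32 on the log2 scale (adjusted p = 0.000304), and Kif14, a midzone kinesin, 1.61 ± 0.32 (adjusted p = 0.00107). The 2 that fell were Gtse1, -0.81 ± 0.27 on the log2 scale (adjusted p = 0.0237), and Zwint, a kinetochore protein, -0.59 ± 0.13 (adjusted p = 0.00267). In bulk MPC against bulk myoblasts 64 of the 74 fell and none rose, and in differentiated against bulk myoblasts 71 fell and none rose. Of all genes 30.1% fell in the first of these comparisons and 28.6% in the second. GFP+ MPC against bulk MPC had 73 of 74 higher, and GFP+ myoblasts against bulk myoblasts 51, where 32.9% and 12.7% of all genes were higher. Without bulk MPC replicate 2, 69 of the 74 fell in bulk MPC against bulk myoblasts and 73 were higher in GFP+ MPC against bulk MPC. Of all genes 55.8% and 64% then passed in either direction.

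DNA replication genes had few calls in the comparison of sorted cells and many in the others. In GFP+ MPC against GFP+ myoblasts 3 of 39 rose and 1 fell, with a median log2 fold change of 0.18, against 25 of 48 mitosis genes with a median of 0.72. Of all genes 48.6% passed there. The rises included Ccne1, cyclin E1, 1.77 ± 0.18 on the log2 scale (adjusted p = 4.79e-06), and Rfc4, a clamp loader subunit, 0.96 ± 0.19 (adjusted p = 0.0013), and the fall was that of Rrm2, a ribonucleotide reductase subunit, -1.32 ± 0.31 (adjusted p = 0.00297). The summed level of the 39 was 3853, 4162 and 5063 CPM in GFP+ MPC and 3922, 3484 and 5121 CPM in GFP+ myoblasts, and the groups overlapped. In bulk MPC against bulk myoblasts 34 of 39 fell and none rose, with Rrm2 at -3.13 ± 0.33 on the log2 scale. In differentiated against bulk myoblasts 37 fell and none rose, with Cdc6, a loader of the replicative helicase, at -5.03 ± 0.55 on the log2 scale. Of all genes 30.1% fell in bulk MPC and 28.6% in differentiated myoblasts, each against bulk myoblasts. All 39 were higher in GFP+ MPC against bulk MPC, and all 39 in GFP+ myoblasts against bulk myoblasts, where 32.9% and 12.7% of all genes were higher. Without bulk MPC replicate 2, 36 of 39 fell in bulk MPC against bulk myoblasts, with Rrm2 at -3.68 ± 0.27 on the log2 scale, and 38 were higher in GFP+ MPC against bulk MPC. Of all genes 55.8% and 64% then passed in either direction.

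Of 17 genes of the DREAM, MuvB and E2F factors that control this program, 3 rose and 11 fell in differentiated against bulk myoblasts. Of all genes 54.2% passed there. Mybl2, B-Myb, had 0.492, 1.01 and 0.73 CPM in differentiated and 23.7, 26.3 and 20.2 CPM in bulk myoblasts, a change of -4.98 ± 0.42 on the log2 scale (adjusted p = 1.41e-06), and E2f7, a repressive E2F, changed by -5.23 ± 0.47 (adjusted p = 2.28e-06). Lin37, a MuvB subunit, and Rbl2, the pocket protein of DREAM, rose by 1.11 ± 0.16 on the log2 scale and 0.74 ± 0.09. In bulk MPC against bulk myoblasts 4 rose and 6 fell, a share near the 58.5% of all genes that passed. E2f2 changed there by 2.16 ± 0.37 on the log2 scale (adjusted p = 0.000277) and Mybl2 by -1.64 ± 0.33 (adjusted p = 0.000863). In GFP+ MPC against GFP+ myoblasts 4 rose and 2 fell, a share below the 48.6% of all genes that passed. E2f2, an activating E2F, had 112, 200.3 and 179 CPM in GFP+ MPC and 25.4, 21.1 and 53.8 CPM in GFP+ myoblasts, a change of 2.30 ± 0.38 on the log2 scale (adjusted p = 0.000255). Rbl2 rose by 0.74 ± 0.09 on the log2 scale (adjusted p = 1.65e-05) and Rb1, the retinoblastoma protein, changed by -0.85 ± 0.18 (adjusted p = 0.00171). Neither Mybl2, at -0.27 ± 0.31 on the log2 scale, nor Foxm1 passed the threshold there. Without bulk MPC replicate 2, bulk MPC against bulk myoblasts again had 4 higher and 6 lower, where 55.8% of all genes passed. E2f2 was at 2.01 ± 0.40 on the log2 scale and Mybl2 at -2.15 ± 0.31.

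Of 10 cell cycle inhibitors, 4 rose and 2 fell in GFP+ MPC against GFP+ myoblasts, where 48.6% of all genes passed. Cdkn1c, the CDK inhibitor p57, had 737, 1666 and 994 CPM in GFP+ MPC and 4.43, 2.77 and 1.05 CPM in GFP+ myoblasts, a log2 fold change of 8.64 ± 0.77 (adjusted p = 1.71e-06). Cdkn1b, the inhibitor p27, rose by 1.28 ± 0.21 on the log2 scale (adjusted p = 0.000227). Cdkn1a, the inhibitor p21, had 333, 168 and 231 CPM in GFP+ MPC and 624, 577 and 416 CPM in GFP+ myoblasts, a change of -1.14 ± 0.23 on the log2 scale (adjusted p = 0.00104), and Gadd45g one of -2.34 ± 0.16 (adjusted p = 2.08e-07). Cdkn1c was thus high in the same GFP+ MPC libraries that held the highest mitosis genes. It had 946, 919 and 971 CPM in bulk MPC, where mitosis genes were low, 110.5, 104 and 124 CPM in differentiated myoblasts and 54.6, 24.6 and 172 CPM in bulk myoblasts. In differentiated against bulk myoblasts Cdkn1a, at 3424, 3733 and 3119.7 CPM in differentiated and 1314, 1117 and 1498 CPM in bulk myoblasts, rose by 1.39 ± 0.23 on the log2 scale (adjusted p = 0.000215). In all, 3 inhibitors rose and 3 fell there, where 54.2% of all genes passed. Against bulk MPC, GFP+ MPC had 1 inhibitor higher and 5 lower, a share not above the 66.6% of all genes that passed. Gadd45a was at -3.07 ± 0.16 on the log2 scale and Cdkn1a at -2.86 ± 0.24. Without bulk MPC replicate 2 the count was 1 higher and 6 lower, where 64% of all genes passed. Gadd45a was then at -3.04 ± 0.17 on the log2 scale and Cdkn1a at -2.97 ± 0.25.

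The high-passage GFP+ MPC library, without a replicate, was set beside the 3 GFP+ MPC libraries without a test. Of the 48 mitosis genes 38 were below the GFP+ MPC range, 9 within it and 1, Wee1, above it, whereas 26.4% of all tested genes were below, 47.5% within and 26% above. The median log2 difference to the group mean was -0.36 over the 48 and 0.00 over all genes. Ccnb1 had 163 CPM in the high-passage library, against 296, 300.1 and 270.4 CPM in GFP+ MPC, and Ckap2 had 63.1 CPM, against 159, 112 and 106 CPM. Mki67, at 821 CPM, Top2a, at 880.5 CPM, and Stmn1, at 326 CPM, lay within the GFP+ MPC range. Sex, age, passage and starting cells differ from the other libraries and cannot be told apart.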

How the data were processed

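Poly(A)-selected, stranded RNA was sequenced from a single end in 16 libraries, per the labels. The authors deposited 1 file per library with estimated counts, TPM, length and effective length (an other unit) for each of 121798 transcripts, per the file headers. The submitters' processing notes name fastp 0.20.0, kallisto 0.46.1 and the build GRCm39, and kallisto divides reads shared between similar transcripts, so near-identical copies of a gene are uncertain.

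Estimated counts were summed per gene over the 120739 transcripts that matched GENCODE M21 (on GRCm38, used for names alone) and rounded to whole numbers; the 1059 others held 0.478% to 1.05% of counts. The deposited TPM served to compare genes with each other and for length-scaled counts. A single fit with edgeR 4.0.16 in R 4.3.3 (quasi-likelihood test, TMM, minimum count 10, minimum total 15) held 15 libraries in 5 groups, with 15533 genes tested, a common dispersion of 0.047 and 10 residual degrees of freedom. The procedure was tested on simulated data. Benjamini-Hochberg adjusted p values cover all tested genes at a threshold of 0.05. CPM were scaled with TMM factors over 16 libraries, 0.767 to 0.867 in bulk MPC and 1.09 to 1.15 in sorted libraries. Replicate libraries differed by more than sampling noise in every pair (chi-square over genes 10.6 to 64.2 times its degrees of freedom).

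In all, 7 comparisons were fitted, and several share groups. The alternatives were DESeq2 1.42.0, other scalings, no filter, length-scaled counts, only the compared libraries, a replicate block and leaving out each library; for the other lists, leaving out bulk MPC replicate 2 was added after seeing the data. The labels call the samples biological replicates and number them. Deviations from each group's own mean were correlated, so positive values for same numbers in part force negative ones for unlike numbers. Same-numbered bulk MPC and bulk myoblast libraries deviated together (r of 0.13 to 0.16 over genes, against -0.14 to -0.02 for unlike numbers). GFP+ MPC and bulk MPC did so too, but weakly (r of 0.03 to 0.04, against -0.04 to 0.01). Library names also start with a number shared by same-numbered replicates, and the labels do not say whether it is the animal or the parental line. Beyond that number both pairings rest on these correlations, and the block changed no count of calls in either comparison. The 48 genes, the other lists and the promoters shown were chosen with earlier results of these data known. All 48 could be named; of other lists, the 2 genes with the largest called change in each direction were eligible, and Bub1, Cdk1 and other examples with CPM were picked by role. Any other gene was chosen after its values were seen, as were the marker genes of bulk MPC replicate 2.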

Additional observations from a re-analysis of the deposited data

Results flagged for a closer look

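The effect of GFP sorting differed between MPC cultures and myoblast cultures for all 48 mitosis genes (48 of 48 with a larger effect in MPC, edgeR's quasi-likelihood interaction test with Benjamini-Hochberg adjustment, where 37.1% of all genes passed in either direction). Passage differed between sorted and unsorted myoblasts but not between the MPC groups, so it cannot be told apart from sorting here. The log2 difference was largest for Ccnb1 with 2.55, Cdc20 with 2.50, Nusap1 with 2.47 and Cenpa with 2.45. Summed over the 48 genes the level was 8665 to 10350.0 CPM in GFP+ MPC and 739 to 1720 CPM in bulk MPC, and 4303 to 6816 CPM in GFP+ myoblasts and 2663 to 2982 CPM in bulk myoblasts. Muscle differentiation markers were 56466 to 77174 CPM in bulk MPC and 15748 to 23046 CPM in bulk myoblasts, and fibroblast markers were 106 to 936 CPM in bulk MPC and 724 to 991 CPM in bulk myoblasts. The part of either list in the difference was not tested.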

How the results depend on the processing

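Alternatives were run for the count of mitosis genes called in each of 7 comparisons. Of these 97 values 90 stayed within 1.5 times the reported count, 7 moved by more and none changed direction. All 7 came from leaving out 1 library: the count was 11 to 29 in GFP+ MPC against GFP+ myoblasts (25 with all libraries) and 12 to 36 in GFP+ myoblasts against bulk myoblasts (36 with all). It was 41 to 48 in bulk MPC against bulk myoblasts, 47 to 48 against differentiated myoblasts and 48 throughout in the other 3. The other 7 settings gave 23 to 28, 44 to 48, 48, 47 to 48, 48, 34 to 47 and 48 for the comparisons in the order fitted, and DESeq2 called 45 in GFP+ myoblasts against bulk myoblasts. Of single-gene values 4434 kept their side of the threshold, 170 lost it, 52 gained it and none turned sign while called. Scaling by library totals alone moved the median of all genes to -0.38 in bulk MPC against bulk myoblasts, -0.25 in differentiated against bulk myoblasts, 0.46 in GFP+ MPC against bulk MPC and 0.46 in the difference of sort effects. It moved the split of calls over all genes in 6 of the 7 comparisons, as given with each. Leaving out bulk MPC replicate 2 for the other gene and marker lists was chosen after seeing the data; it moved the fibroblast marker calls from 5 to 8 in bulk MPC against bulk myoblasts and from 4 to 7 in the difference of sort effects, and no other list's count by over 1.5 times. In the replicate block, pairing by the number gave 25, 47, 48, 48, 48, 38 and 48 called in the same order and changed no other call count by over 1.5 times. Apart from the pairs of bulk MPC with bulk myoblasts and with GFP+ MPC, correlations of same-numbered libraries were -0.02 to 0.21. In those other comparisons they overlapped the correlations of unlike numbers. Low counts of the 48 genes limit the differentiated libraries most, where 11 of the 48 had a mean under 1 CPM. The totals of these libraries, 19.6 to 23.3 M, lay within the range of the others.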
